A study of Mus musculus with 17 samples.

Results

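The 8 genes described here encode the contractile apparatus of smooth muscle, and were taken by name from the 30406 genes that all 17 libraries measured. They are Acta2 (smooth muscle alpha actin, also called α-SMA), Actg2 (smooth muscle gamma actin), Myh11 (smooth muscle myosin heavy chain), Myl9 (a regulatory light chain of myosin), Tpm2 (beta tropomyosin), Cnn1 (calponin 1), Tagln (transgelin, also called SM22α) and Lmod1 (leiomodin 1, which nucleates actin filaments). All 8 were detected in both tissues. On the mouse genome (GRCm38) the genes lie apart from each other, Acta2 at chr19:34241090-34255590 (minus strand), Actg2 at chr6:83512905-83536265 (minus), Myh11 at chr16:14194535-14291372 (minus), Myl9 at chr2:156775420-156781658 (plus), Tpm2 at chr4:43514711-43523765 (minus), Cnn1 at chr9:22099216-22109630 (plus), Tagln at chr9:45929619-45936058 (minus) and Lmod1 at chr1:135324807-135368065 (plus). Tagln overlaps Pcsk7 on the opposite strand.

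GFP+ cells were sorted from the skin or kidney of 8-week-old mice and profiled with single-cell RNA-Seq (10x Genomics 3′ v3), which counts 1 unique molecular identifier (UMI) per captured RNA molecule. All mice carried PDGFRb-Cre, a constitutive Cre under the Pdgfrb promoter, and the Z/EG reporter, so that a cell is GFP+ if it or a precursor once used that promoter. The promoter has also been active in leukocyte precursors, and the sort was therefore not limited to pericytes. SARATg mice additionally expressed human SARA (ZFYVE9) from the Rosa26 locus after Cre recombination, and SARAWT mice did not. Skin came from SARAWT mice given subcutaneous PBS (3 libraries) or bleomycin (3 libraries) and from SARATg mice given PBS (1 library) or bleomycin (1 library). Bleomycin, which elicits dermal fibrosis, was given at 20 mg/kg for 2 weeks, 3 times a week by the sample labels, whereas the methods of the study describe daily injections. Kidney came from SARAWT mice given intraperitoneal vehicle (3 libraries) or aristolochic acid (AA, 3 libraries) and from SARATg mice given vehicle (2 libraries) or AA (1 library). AA was given at 5 mg/kg, 3 times a week for 3 weeks, and is toxic to the proximal tubule.

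Contraction of smooth muscle depends on myosin thick filaments, in which the heavy chain carries regulatory light chains, pulling on thin filaments of actin and tropomyosin, while calponin and transgelin bind the thin filament. Most of these genes are driven by serum response factor and its coactivator myocardin, which act through the CArG box, a motif that begins with CC, continues with a run of A and T, and ends with GG. Myofibroblasts are stromal cells that acquire α-SMA in wound healing and fibrosis and deposit collagen, and they take up part of this program. Acta2 and Tagln are shared by both cell states, while Myh11 and Lmod1 are regarded as markers of differentiated smooth muscle. The question addressed is whether treatment moved these genes in mural cells (pericytes and vascular smooth muscle) and in collagen-producing stromal cells.

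The stretches of 250 bases before the start site of Acta2 and Myl9 are shown because they were the ones with a CArG box or a near match among the 5 members in the promoter table (RefSeq, GRCm38.p6). Capitals mark the matches. The exact box of Myl9 (chr2:156775214-156775463, plus strand) begins 161 bases before the start, and a near match, with 1 position of the A and T run replaced by G or C, begins 99 bases before it. Acta2 (chr19:34255374-34255623, minus strand) had no exact box and 2 near matches, 84 and 34 bases before the start. The start sites are those of the RefSeq table. The gene positions given above come from another annotation, in which Acta2 and Myl9 begin further upstream, so that most of the Acta2 window and the end of the Myl9 window lie inside the gene as placed there.
Acta2: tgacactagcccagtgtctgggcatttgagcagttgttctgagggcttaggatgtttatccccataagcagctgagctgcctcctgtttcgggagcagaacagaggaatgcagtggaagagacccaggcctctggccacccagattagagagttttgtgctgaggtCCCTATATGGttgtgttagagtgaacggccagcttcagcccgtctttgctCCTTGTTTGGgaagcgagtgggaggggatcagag
Myl9: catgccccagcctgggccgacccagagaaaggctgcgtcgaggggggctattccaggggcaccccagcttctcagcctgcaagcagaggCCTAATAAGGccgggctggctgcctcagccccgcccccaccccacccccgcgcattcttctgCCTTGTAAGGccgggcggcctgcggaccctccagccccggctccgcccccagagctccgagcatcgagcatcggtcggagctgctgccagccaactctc
The windows of Cnn1, Tpm2 and Lmod1 held neither form. Since the motif reads the same way on both strands, 1 scan covered both. An exact box was found in 1.47% of the 32851 windows of this length and an exact or near match in 8.59%. Promoters of Tagln, Myh11 and Actg2 were not analysed here.

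After filtering, 30085 skin cells (781 to 6548 per library) and 61744 kidney cells (4003 to 10057 per library) were kept, from libraries of 3355217 to 137093834 UMIs. Levels are given as counts per 1000000 UMIs (CPM), summed over the cells of a library and class, and are compared within a gene. The libraries were made with 2 gene lists, and bleomycin 1 and 2 and PBS 1 and 2 of SARAWT skin share the longer one. Some cell barcodes occurred in more than 1 skin library. This was the case for 55.5% of the barcodes of SARAWT PBS 2, 22.1% of bleomycin 2, 17.6% of bleomycin 1 and 7.38% of PBS 1, and for at most 0.824% in the other skin libraries and 2.13% in kidney. The transgene check went against some labels. Mouse Zfyve9 reached 620 CPM in the skin library labelled SARAWT PBS 3, above the 314 and 224 CPM of the SARATg skin libraries, and human ZFYVE9, which only the longer list holds, stood at 838 CPM in the library labelled SARAWT PBS 1 against 87.4 to 187 CPM in the other libraries with that list. Since SARAWT mice did not express human SARA, these values do not clear PBS 2, bleomycin 1 and bleomycin 2 either, and their source was not tested. In kidney, Zfyve9 was 163 CPM in the library labelled SARAWT AA 1 and 20.6 CPM in the library labelled SARATg AA 1. The stromal and all-cell comparisons in skin, of treatment and of genotype, were therefore also computed without the libraries labelled SARAWT PBS 1 and PBS 3.

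Cells were assigned to classes by lists of markers that hold none of the 8 genes. In skin, 139 cells were mural and 2817 stromal, and leukocytes made up 52.3% to 83.0% of a library. Rgs5, a pericyte and smooth muscle regulator of G protein signaling, ranged from 2031 to 16689 CPM in mural cells and stayed at or below 0.411 CPM in stromal cells. Pdgfra, the stromal receptor, had 0 UMIs in the mural cells of all 8 libraries and ranged from 118 to 368 CPM in stromal cells. Both genes are among the markers that define these gates, so that their values describe the gates and are no separate check of them.

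The contractile genes were concentrated in mural cells of both tissues. Over the 8 skin libraries, Acta2 averaged 8543 ± 1522 CPM (SD) in mural cells and 432 ± 372 CPM in stromal cells, and Tagln averaged 8090 ± 1706 and 215 ± 203 CPM. Myh11 separated the classes most sharply, with 3328 ± 1216 CPM in mural and 0.615 ± 0.385 CPM in stromal cells. Lmod1 behaved alike, with 452 ± 129 and 0.426 ± 0.435 CPM, as did Cnn1, with 188 ± 51.8 and 1.78 ± 2.21 CPM. Myl9 (3833 ± 813 and 76.6 ± 67.2 CPM) and Tpm2 (3886 ± 907 and 286 ± 244 CPM) were clearly detected on both sides. Actg2 was the least uniform member in skin, where mural cells had a mean of 96.6 CPM with a range from 0 to 251 CPM, and no kidney mural cell had a UMI of it.

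**Figure D1:**
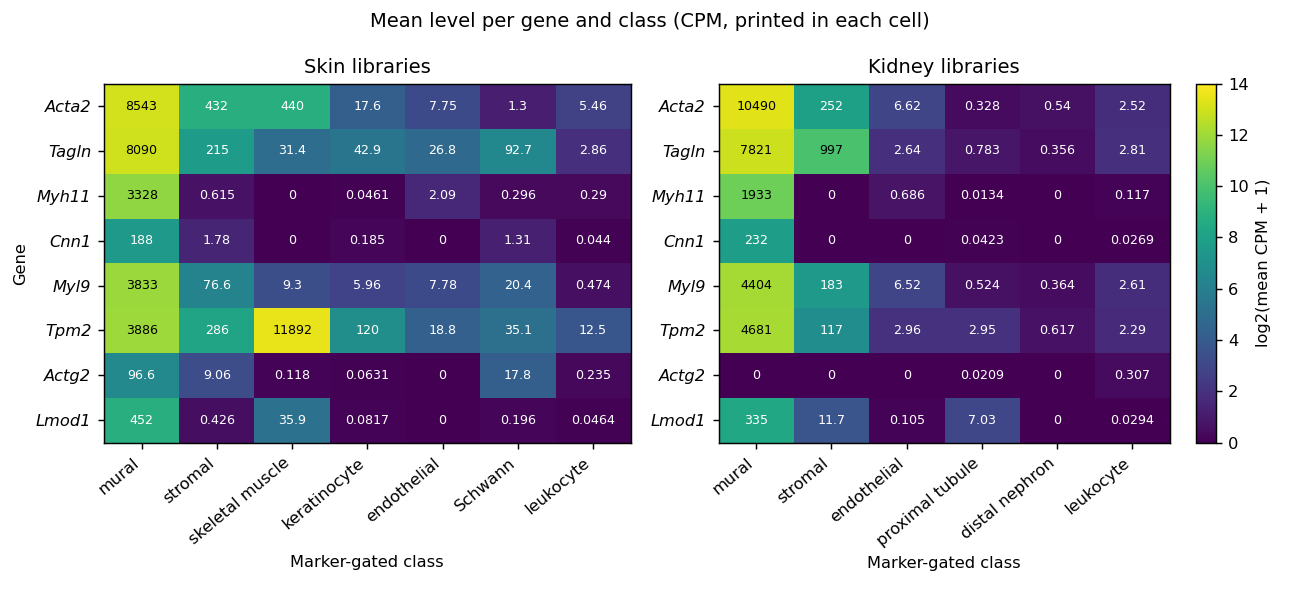
Mean level of each gene (rows) by marker-gated class (columns) in skin and kidney, in CPM averaged over libraries with at least 5 cells of the class, with color on a log2(CPM + 1) scale. Acta2 was 8543 CPM in skin mural cells against 432 CPM in stromal cells, and Tpm2 reached 11892 CPM in skeletal muscle.

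A direct test in the 5 skin libraries with at least 10 cells of both classes (edgeR quasi-likelihood F test, with the library as a block) found 7 of 7 tested members higher in mural than stromal cells, beside 17.9% of all 6301 genes called higher and 39.6% called in either direction. The log2 difference was 12.64 ± 0.36 (SE) for Myh11 (adjusted p = 9.53e-13), 10.46 ± 0.37 for Lmod1, 8.64 ± 0.40 for Cnn1, 6.98 ± 0.59 for Tagln, 6.86 ± 0.60 for Myl9, 6.58 ± 0.94 for Acta2 (adjusted p = 2.87e-05) and 5.18 ± 0.45 for Tpm2. Actg2 did not pass the filter on low counts. Myh11, Cnn1 and Lmod1 had 17, 15 and 7 UMIs in the stromal cells of these libraries and passed that filter through the mural cells. Their differences are thus set against stromal counts near 0. In these 5 libraries, every mural value of the 7 genes lay above every stromal value, as for Tpm2 (2751 to 5375 against 32.0 to 298 CPM).

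The wider contractile list moved with them. Of its 24 tested genes, 22 were higher in mural cells and 1 was lower, with a median log2 difference of 3.63 beside −0.10 over all tested genes. The 4 with the largest differences were Synpo2 (synaptopodin 2, an actin bundling protein; 7.33), Des (desmin, the muscle intermediate filament; 6.99), Jph2 (junctophilin 2; 6.77) and Pdlim3 (5.89). Of the 4 tested regulators, 1 was higher, namely Myocd, which encodes myocardin (6.93 ± 0.57 on the log2 scale). Myofibroblast matrix genes went the other way, 16 of 18 tested being lower in mural cells and none higher. Col1a1 had 90.7 to 148 CPM in mural and 12005 to 87694 CPM in stromal cells, Col3a1 25.2 to 243 and 6577 to 35563 CPM, and Tgfbi 0 to 8.27 and 222 to 1368 CPM. Cthrc1, which encodes a secreted matrix protein, had 0 UMIs in the mural cells of these libraries and 23.3 to 193 CPM in stromal cells. The markers of the stromal gate include matrix genes such as Lum and Fbn1, and cells with enough markers of both lists were left out as mixed. A mural cell that took on matrix genes could thus leave the class in any comparison. The low matrix values of mural cells are therefore in part set by the gates. Of 6 non-muscle actin and myosin genes, 4 were lower in mural cells (Myh10, Myl12a, Actg1 and Myl12b) and 1 was higher.

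Mural cells themselves varied. Cells with more smooth muscle than pericyte markers (85 in skin, over 8 libraries) had 8926 CPM of Acta2, 4280 CPM of Myh11 and 4303 CPM of Myl9. Cells with more pericyte markers (36, over 6 libraries) had 2915, 1172 and 1338 CPM of these genes. Tagln (8504 and 3314 CPM), Tpm2 (4273 and 1541 CPM) and Lmod1 (456 and 227 CPM) were ordered the same way, as was Cnn1 (203 and 117 CPM), and Actg2 was not (58.2 and 79.8 CPM). The pericyte-leaning values rest largely on the library labelled PBS 3, which held 18 of the 36 cells. Without it, these cells had 2100 CPM of Acta2, 1730 CPM of Tagln, 947 CPM of Myh11 and 1168 CPM each of Myl9 and Tpm2. These values rest in turn on 3 cells of SARATg bleomycin 1. They held 118 of the 142 UMIs of Acta2, 88 of 117 of Tagln, 54 of 64 of Myh11, 33 of 79 of Myl9 and 47 of 79 of Tpm2. In the 2 libraries with 5 or more pericyte-leaning cells, Acta2 was 344 and 3494 CPM, and no test was made.

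In the other classes of skin the mean of each member was below its mean in mural cells, except for Tpm2 in skeletal muscle. Tpm2 averaged 11892 CPM in skin skeletal muscle cells (6171 to 16085 CPM over 8 libraries); striated fibers use this tropomyosin as well. Acta2 averaged 440 CPM in the same cells but ranged from 6.69 to 1341 CPM. Lmod1 averaged 35.9 CPM there, and Myh11 and Cnn1 had 0 UMIs in skeletal muscle cells of every skin library. In kidney, Lmod1 was present in proximal tubule cells at a mean of 7.03 CPM (0 to 16.2 CPM over 9 libraries), while distal nephron cells had 0 UMIs. Schwann cells of skin had 92.7 CPM of Tagln (14.4 to 330 CPM) beside 1.30 CPM of Acta2. In leukocytes, Acta2 ranged from 1.11 to 15.6 CPM in skin and from 0.997 to 4.98 CPM in kidney.

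In mural cells of SARAWT skin, none of the members was called different after bleomycin. Few cells were available, 21, 11 and 50 in PBS 1 to 3 and 5, 11 and 8 in bleomycin 1 to 3. With a shared barcode kept only in the library where it had most UMIs, 14, 11 and 50 and 3, 4 and 8 remained. Acta2 was 7704, 8954 and 5343 CPM after PBS and 8572, 8650 and 9332 CPM after bleomycin. The groups overlapped, with the lowest value in the library labelled PBS 3. Tagln was 6635, 8818 and 6261 CPM after PBS and 5845, 9227 and 10080 CPM after bleomycin. Myh11 was 5345, 3320 and 2917 CPM after PBS and 2078, 2156 and 2917 CPM after bleomycin. The highest bleomycin value of Myh11 was level with the lowest PBS value. Myl9 was 4161, 5093 and 2986 against 2922, 3134 and 3834 CPM, and Tpm2 was 4154, 4251 and 2749 against 2987, 3209 and 3628 CPM. Lmod1 was 336, 391 and 328 against 325, 677 and 561 CPM, and Cnn1 237, 165 and 151 against 195, 100 and 168 CPM. Actg2 had 0 UMIs in bleomycin 1 and 2 and 150 CPM in bleomycin 3, against 15.3, 60.1 and 52.3 CPM after PBS. With all 6 libraries, no member had groups without overlap, beside 7.73% of 970 genes above and 12.8% below.

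**Figure D2:**
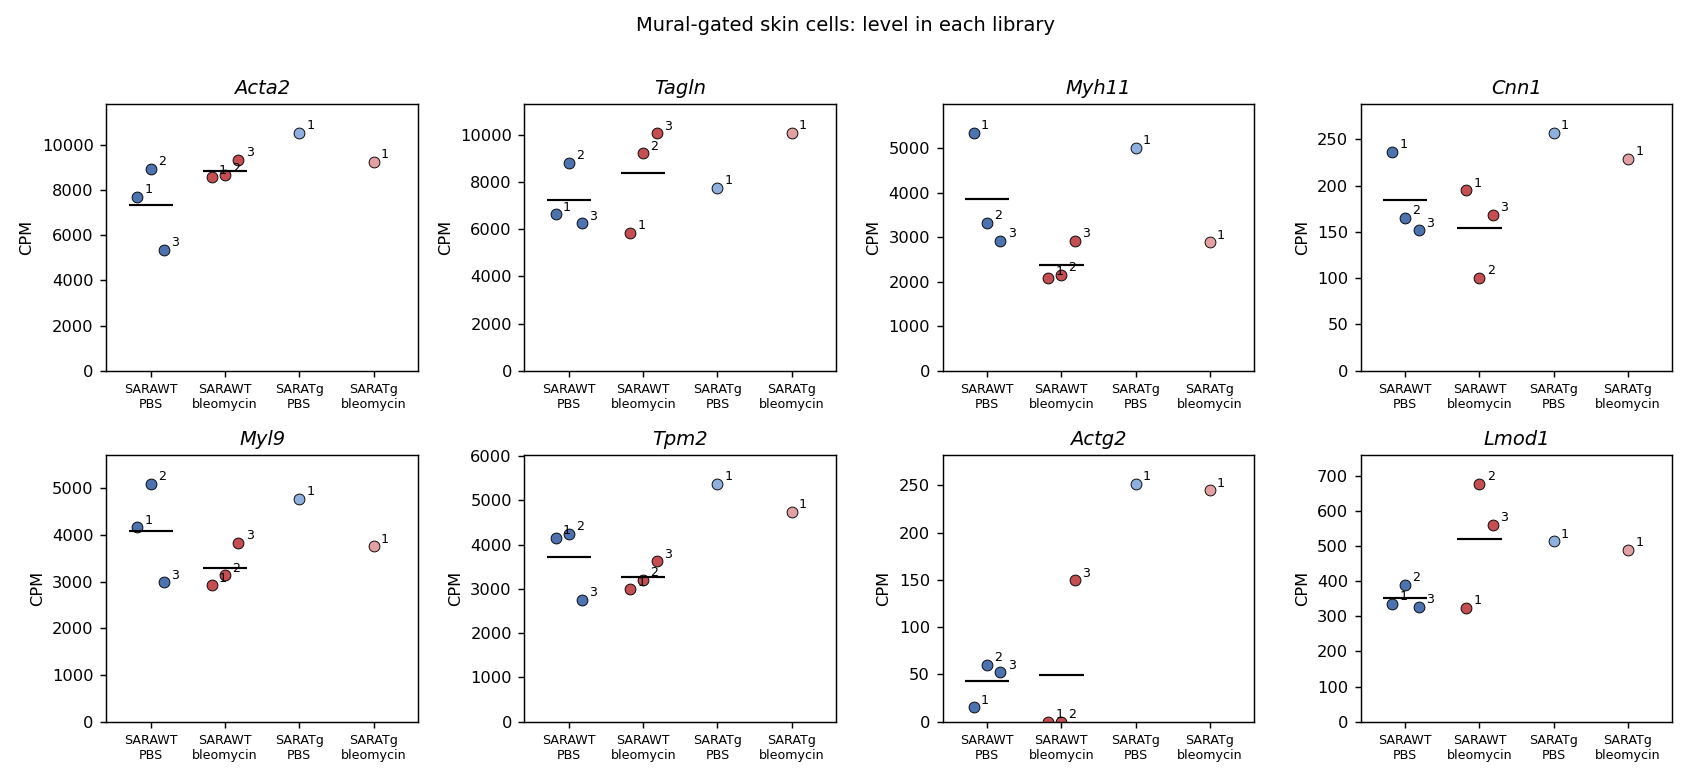
Level of the 8 genes in mural-gated skin cells of each library (points, with the replicate number) in CPM on linear axes that start at 0; bars are means of the 3 SARAWT libraries of a treatment. PBS and bleomycin values overlap for all 8 genes, as for Acta2 at 5343 to 8954 and 8572 to 9332 CPM.

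With a minimum of 10 cells, 3 PBS libraries and bleomycin 2 remained. Of the 11 mural cells of bleomycin 2, 4 stayed there once a shared barcode was kept only where it had most UMIs. The lone bleomycin library is assumed in the test to vary like the PBS libraries. In this edgeR test 0 of 7 members passed, beside 0% of 2344 genes. At an unadjusted p under 0.05 there were 183 genes, 1 of them a member, Lmod1 (log2 change 0.94 ± 0.42 SE, adjusted p = 0.595), and DESeq2 called 2 genes (0.0853%), neither a member. The log2 change in this test was 0.23 ± 0.45 for Acta2 and −0.85 ± 0.47 for Myh11 (adjusted p = 0.905 and 0.670 by edgeR). With 5 cells as the minimum and all 6 libraries, 0 of 7 members passed and 0.412% of 970 genes did. Where markers were counted only above the free RNA of a library, a gate chosen after seeing the data, 5 libraries had 10 cells and 3 members were lower after bleomycin (Myh11 by 1.85, Myl9 by 1.42 and Tpm2 by 1.23 on the log2 scale, edgeR adjusted p = 0.00926, 0.0284 and 0.0401), beside 6.26% of 3130 genes lower. That gate brought in bleomycin 3, with 16 mural cells in place of 8, and lowered its thinned share of mural cells with an Acta2 UMI from 99.2% to 62.7%. With at least 2 or at least 4 markers, 0 members were called.

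Stromal cells of SARAWT skin showed higher values of Tpm2, Acta2 and Tagln after bleomycin in most libraries, without a member passing the test across all genes. Tpm2 was 199, 63.9 and 60.7 CPM after PBS (582, 121 and 347 cells) and 514, 296 and 420 CPM after bleomycin (125, 146 and 139 cells). All bleomycin libraries lay above all PBS libraries, and Tpm2 was the only one of the 4 tested members without overlap, beside 14.3% of 10732 genes. Acta2 was 630, 84.3 and 10.3 CPM after PBS and 890, 505 and 414 CPM after bleomycin. The groups overlapped because of the library labelled PBS 1, and the PBS libraries alone spanned 10.3 to 630 CPM. Tagln was 390, 43.5 and 39.8 CPM after PBS and 554, 78.6 and 243 CPM after bleomycin. Myl9 was 190, 42.2 and 12.1 against 137, 45.4 and 50.02 CPM. Again the library labelled PBS 1 was the highest of its group, here for both genes. The smooth muscle markers stayed near 0. Myh11 ranged from 0 to 1.36 CPM and Lmod1 from 0 to 1.18 CPM over the 6 libraries, and Cnn1 reached at most 3.93 CPM. Actg2 was 51.4 CPM in the library labelled PBS 1 and 0 to 13.3 CPM in the others.

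**Figure D3:**
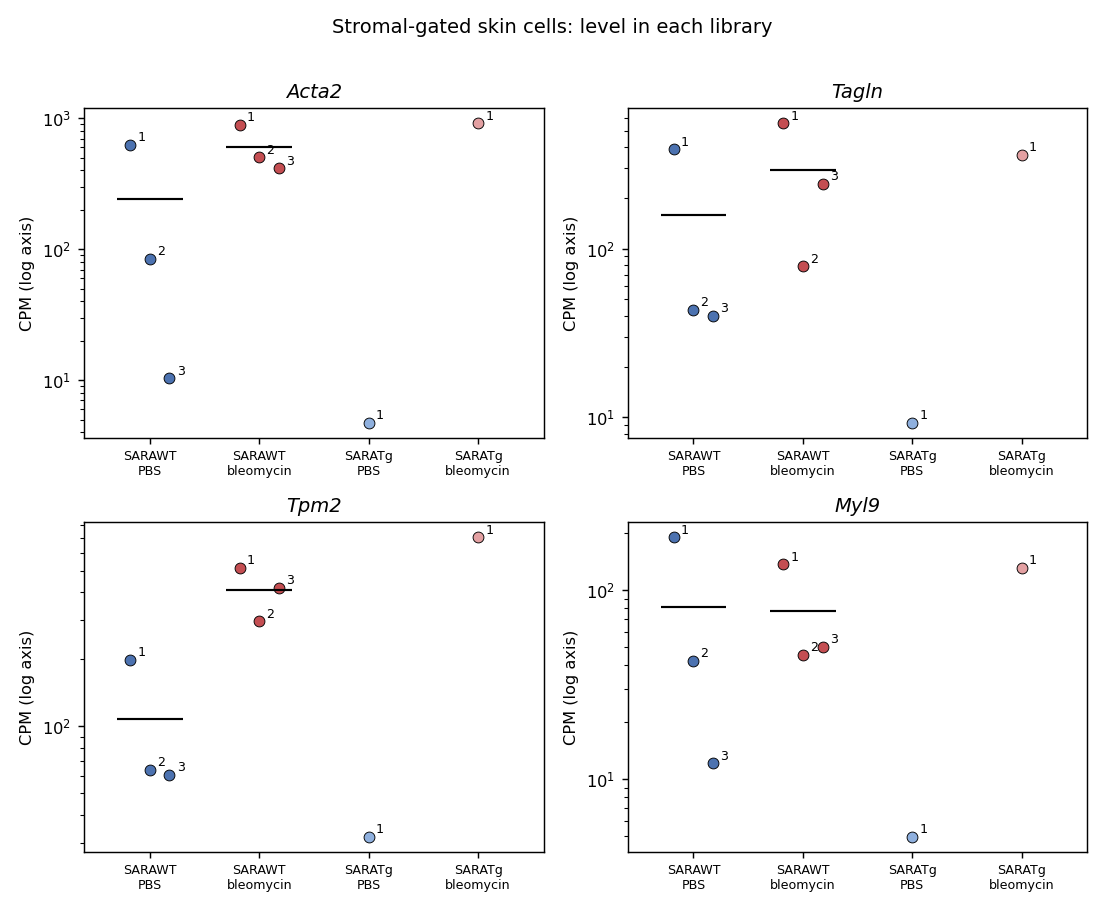
Level of Acta2, Tagln, Tpm2 and Myl9 in stromal-gated skin cells of each library (points, with the replicate number) in CPM on log axes; bars are means of the 3 SARAWT libraries of a treatment. Tpm2 was 60.7 to 199 CPM after PBS and 296 to 514 CPM after bleomycin, without overlap, while Acta2 of the library labelled PBS 1 (630 CPM) lay within the bleomycin range.

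The edgeR test called 2.54% of 10732 genes (1.41% higher and 1.14% lower, 151 and 122 genes) and 0 of the 4 members. At an unadjusted p under 0.05 there were 2577 genes, 1 of them a member, and DESeq2 called 833 genes, 1 of them a member, Tpm2 in both cases. In edgeR, Tpm2 had a log2 change of 1.96 ± 0.45 (SE) and an adjusted p of 0.0598, above the threshold of 0.05. Acta2 had a log2 change of 1.40 ± 1.06 (adjusted p = 0.450, edgeR), Tagln 0.96 ± 0.92 (0.555) and Myl9 −0.01 ± 0.83 (0.996). The labels state no pairing of the libraries. Same-numbered libraries deviated together in stromal cells (r = 0.236, 0.255 and 0.376), and number 3 is also the only one with the shorter gene list. With the number as a block, Tpm2 passed (2.13 ± 0.25, edgeR adjusted p = 0.0137), beside 10.6% of 11308 genes called. Acta2 (2.69, edgeR adjusted p = 0.0878) and Tagln (1.35, edgeR adjusted p = 0.0681) did not pass. Without the library labelled PBS 1, Tpm2 rose by 2.69 ± 0.32 (adjusted p = 0.0396) and Acta2 had a log2 change of 3.83 ± 0.84 (adjusted p = 0.0685, edgeR). Without the libraries labelled PBS 1 and PBS 3, which leaves PBS 2 as the lone PBS library, the log2 change was 2.70 for Tpm2 and 2.86 for Acta2. PBS 2 itself shared 55.5% of its barcodes with other skin libraries and was not cleared by the transgene check. Without cells whose barcode is shared between libraries, the change of Tpm2 was 1.44 (adjusted p = 0.387) and that of Acta2 0.40 (adjusted p = 0.943). Pdgfrb, the receptor that the sort was built on, fell in the same cells, from 126, 176 and 200 CPM to 64.8, 81.5 and 63.2 CPM (log2 change −1.28 ± 0.26, edgeR adjusted p = 0.0481). Without bleomycin 1, edgeR called 0 of 11144 genes, so that Pdgfrb did not pass there.

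Acta2 was unevenly spread over stromal cells. Cells with at least 300 CPM of Acta2, a level chosen after the data were seen, numbered 116 of 582, 13 of 121 and 5 of 347 in PBS 1 to 3 and 33 of 125, 20 of 146 and 30 of 139 in bleomycin 1 to 3. SARATg skin had 4 of 918 after PBS and 200 of 439 after bleomycin. Since the cells were picked by their own Acta2, these counts are a description, and at the median depth of the high cells of PBS 2 and bleomycin 2, near 1000 UMIs, 1 UMI suffices to pass the level. Cells just below the level, at 200 to 300 CPM, numbered 0 to 22 per library, and those just above it, at 300 to 450 CPM, 0 to 25. The high cells of PBS 2 could not be assigned to that library with certainty. All 13 shared their barcode with another skin library, where it had more UMIs (9 in bleomycin 1, 3 in bleomycin 2 and 1 in PBS 1). Of the 20 high cells of bleomycin 2, 17 shared a barcode and 14 had more UMIs elsewhere, against 27 and 1 of the 33 in bleomycin 1 and 38 and 14 of the 116 in the library labelled PBS 1. In bleomycin 3 and SARATg bleomycin 1, 1 high cell each shared a barcode.

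**Figure D4:**
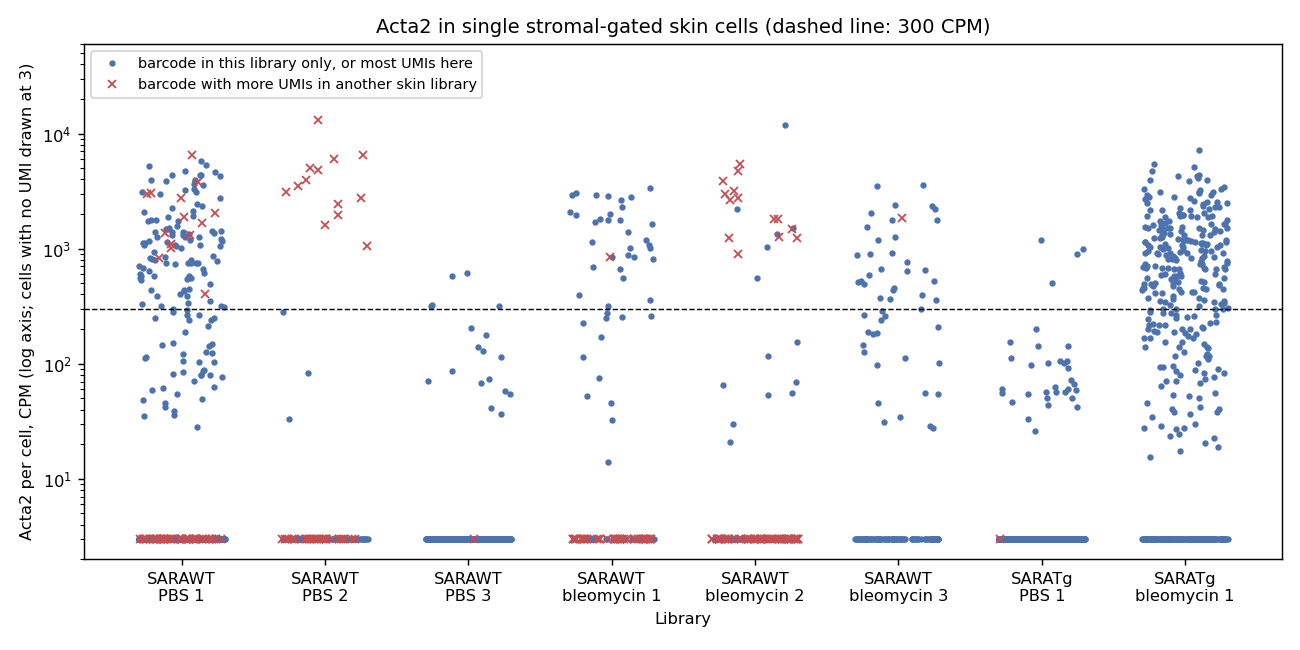
Acta2 in single stromal-gated skin cells by library, in CPM on a log axis, with cells without a UMI drawn at 3 and a dashed line at 300 CPM; crosses are cells whose barcode had more UMIs in another skin library. All 13 cells above the line in SARAWT PBS 2 are crosses, and SARATg bleomycin 1 has 200 of 439 cells above the line.

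High cells differed between libraries in other genes, all named after their values were seen. In the library labelled PBS 1 they had 526 CPM of Ednrb, 1164 CPM of Col11a1, 1978 CPM of Lrrc15 and 381 CPM of Acan. The few high cells of SARAWT PBS 2, SARAWT PBS 3 and SARATg PBS 1 (13, 5 and 4) had parts of this profile, with 214, 27.2 and 233 CPM of Ednrb, 71.3, 489 and 552 CPM of Col11a1, 713, 1018 and 523 CPM of Lrrc15 and 143, 13.6 and 145 CPM of Acan. The high cells of SARAWT bleomycin 1, 2 and 3 and SARATg bleomycin 1 had 0 to 14.2 CPM of Ednrb, 7.37 to 67.8 CPM of Col11a1, 126 to 212 CPM of Lrrc15 and 0 to 7.53 CPM of Acan. These had 855 to 1959 CPM of Crabp1, a retinoic acid binding protein, against 10.6 CPM in the library labelled PBS 1 and 926, 0 and 0 CPM in the other 3 PBS libraries, and 118 to 507 CPM of Cthrc1 against 25.8 CPM in the library labelled PBS 1 and 499, 27.2 and 58.1 CPM in the other 3. PBS 2 thus lay with the bleomycin libraries for both genes. Stmn2 overlapped between treatments, at 499, 0, 326 and 58.1 CPM in the high cells of SARAWT PBS 1 to 3 and SARATg PBS 1. It was 0, 4.72, 158 and 117 CPM in those of SARAWT bleomycin 1 to 3 and SARATg bleomycin 1. Ramp1 did not overlap (54.3 to 465 CPM after PBS against 0 to 18.9 CPM after bleomycin). The 13 high cells of PBS 2 were shallow (median 1028 UMIs). Their values of Ednrb, Col11a1, Acan, Ramp1, Birc5, Mki67 and Top2a rest on few UMIs, as does the 13.6 CPM of Acan in the library labelled PBS 3. Statements on overlap or direction for these genes depend on such counts. Genes of dividing cells did not go 1 way. Birc5 was 147 to 175 CPM in the high cells after bleomycin, 88.0 CPM in those of the library labelled PBS 1, 285 CPM in PBS 2 and 0 CPM in the library labelled PBS 3 and in SARATg PBS 1. In the bleomycin libraries and the library labelled PBS 1, Hmmr was 56.5 to 118 and 35.7 CPM, Mki67 71.4 to 88.4 and 90.7 CPM and Top2a 18.9 to 119 and 213 CPM, and PBS 2 had 0, 143 and 143 CPM of these genes. Tpm2 in the high cells was 407, 926 and 217 CPM in SARAWT PBS 1 to 3, 843 CPM in SARATg PBS 1 and 728, 1138, 760 and 915 CPM in the 3 bleomycin libraries of SARAWT and SARATg bleomycin 1. Tpm2 in the cells below the level was 76.9, 47.2 and 58.3 CPM after PBS and 263, 145 and 211 CPM after bleomycin in SARAWT skin. Tagln in these cells was 46.0, 16.6 and 31.4 against 282, 51.9 and 119 CPM. The bleomycin libraries lay above the PBS libraries for these 2 of 4 members with enough counts, Acta2 having set the level, beside 14.4% of 9346 genes above and 11.3% below. Among genes that mark kinds of stromal cells, Pi16 in the cells below the level was 1464, 1262 and 322 CPM against 221, 260 and 54.2 CPM, Clec3b 1217, 2345 and 614 CPM against 157, 293 and 211 CPM and Crabp1 151, 98.5 and 102 CPM against 1025, 326 and 427 CPM. The groups overlapped for Cthrc1 (21.6, 45.8 and 87.9 against 197, 136 and 66.5 CPM), Postn (836, 910 and 796 against 888, 443 and 1033 CPM) and Col1a1 (12302, 18779 and 29245 against 6700 to 15092 CPM). Their part in the values of Tpm2 and Tagln was not tested. Clec3b is also a marker of the stromal gate. Many cells below the level had more UMIs under their barcode in another library. They were 45 of 92 in bleomycin 1, 58 of 126 in bleomycin 2, 30 of 108 in PBS 2 and 56 of 466 in the library labelled PBS 1. Col1a1, the main fibrillar collagen, was 18249, 5772 and 9152 CPM in the high cells of SARAWT PBS 1 to 3 and 7876, 4522 and 3255 CPM in those of bleomycin 1 to 3, which overlap. High cells were deeper than the rest in PBS 1 (median 26268 and 9909 UMIs), bleomycin 1 (39413 and 2512) and bleomycin 3 (32131 and 10093), and shallower in PBS 2 (1028 and 4650) and bleomycin 2 (1105 and 3181).

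With each cell thinned to 1000 UMIs, the share of stromal cells with an Acta2 UMI was 15.8%, 10.0% and 0.913% after PBS and 28.0%, 9.11% and 15.01% after bleomycin (46, 38 and 6 and 37, 38 and 4 shallower cells left out). The means were 8.92% and 17.4%, 8.45 points apart, which an exact test that permuted the libraries did not separate from the spread (two-sided p = 0.5, where 3 against 3 cannot go below 0.1). Thinned to 500 UMIs, the means were 6.82% and 11.4%, 4.6 points apart. With a shared barcode kept only in the library where it had most UMIs, the share in PBS 2 was 0.543% and the means were 5.53% and 17.5%, 11.96 points apart (exact permutation, p = 0.3 in both cases). Unthinned shares were 27.5%, 13.2% and 5.19% against 36.0%, 19.2% and 36.7%. Leukocytes, which should lack Acta2, had a UMI of it in 1.19% to 4.16% of cells after PBS and 1.81% to 8.39% after bleomycin unthinned, at median depths of 2006 to 9946 UMIs and 6787 to 9556 UMIs, beside 2702 to 13407 and 2431 to 12555 UMIs in stromal cells. The 5.19% in the library labelled PBS 3 was close to its leukocyte share of 4.16%.

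Summed over all sorted skin cells of SARAWT mice, Myh11 was lower after bleomycin in every library. It was 22.0, 70.0 and 24.0 CPM after PBS and 1.499, 4.81 and 3.29 CPM after bleomycin. Myh11 was the 1 member of 8 below without overlap, beside 17.4% of 15335 genes, so that this count does not set the members apart from other genes. Lmod1 was 1.55, 9.43 and 3.97 against 0.685, 1.74 and 1.22 CPM, and Myl9 was 73.7, 119 and 27.8 against 31.7, 14.7 and 9.80 CPM. For these genes 1 value crossed over. Acta2 was 221, 227 and 61.4 against 171, 109 and 71.4 CPM, Tagln 153, 213 and 72.7 against 144, 69.2 and 44.6 CPM, and Tpm2 98.6, 304 and 338 against 273, 270 and 218 CPM. These overlapped widely. Actg2 was 15.04, 4.87 and 0.809 against 3.73, 1.19 and 0.540 CPM, and Cnn1 1.43, 3.65 and 1.48 against 2.48, 1.10 and 0.523 CPM.

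**Figure D5:**
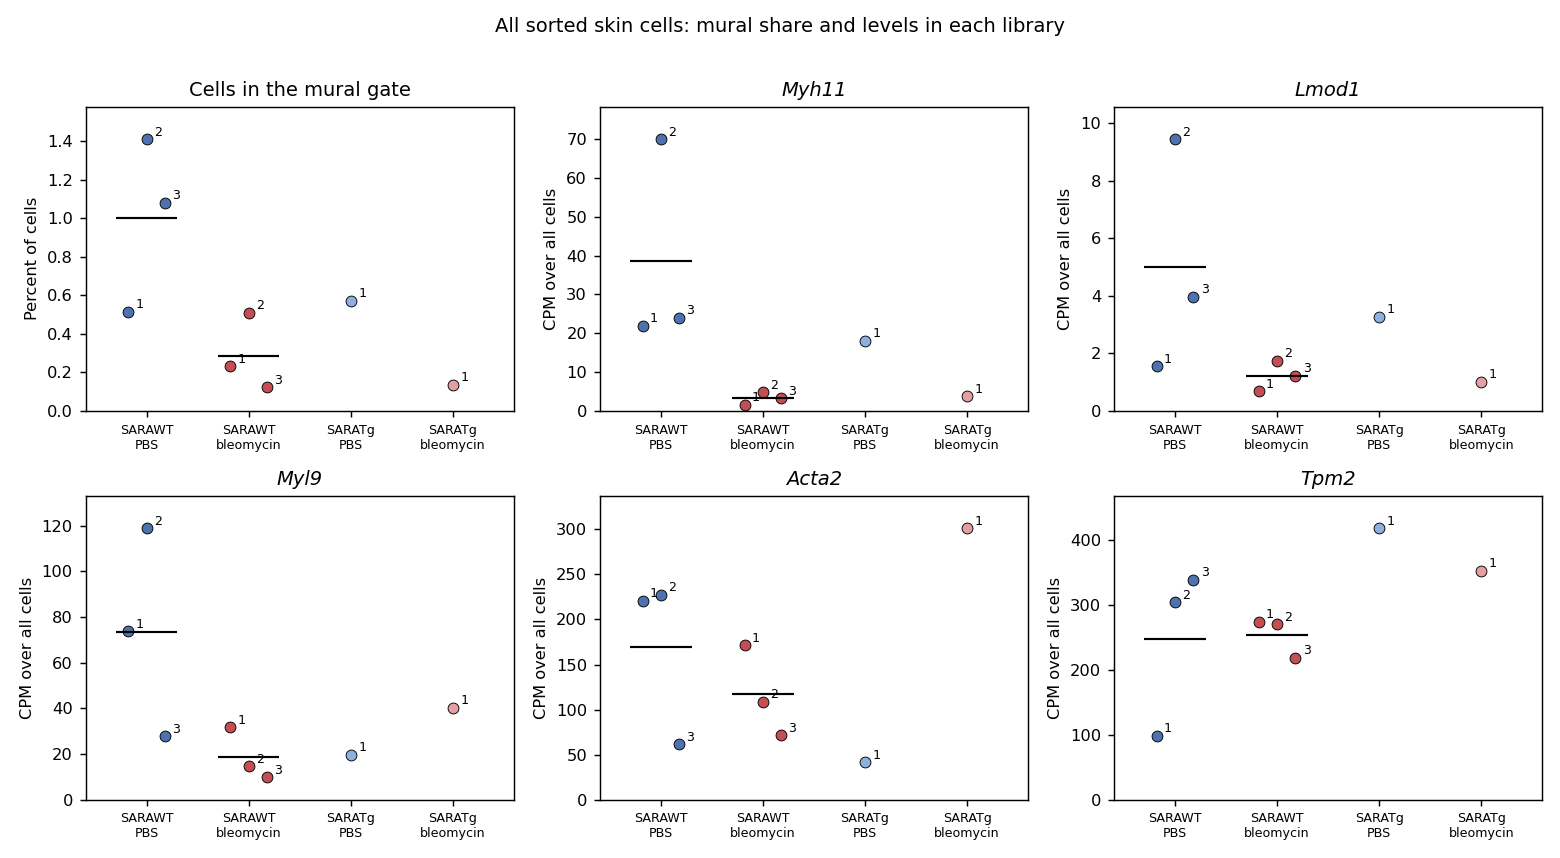
Percent of cells in the mural gate and level over all sorted cells (CPM) of Myh11, Lmod1, Myl9, Acta2 and Tpm2 in each skin library (points, with the replicate number), on linear axes that start at 0; bars are means of the 3 SARAWT libraries of a treatment. With the gate of 3 markers, the mural share and Myh11 are lower in all 3 bleomycin libraries than in all 3 PBS libraries, the share at 0.122% to 0.507% against 0.515% to 1.41%. Of all 15335 tested genes, 17.4% were below without overlap in the same way.

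The edgeR test called 0% of 15335 genes in this comparison, beside 2799 genes at an unadjusted p under 0.05, 3 of them members, and 1319 genes (8.6%) called by DESeq2, 2 of them members (Myh11 and Myl9, both lower). In edgeR, Myh11 had a log2 change of −3.42 ± 0.61 (SE, adjusted p = 0.0625, edgeR), Lmod1 −1.80 ± 0.70 (0.233) and Myl9 −1.79 ± 0.59 (0.174). With the replicate block, Myh11 passed (−3.36 ± 0.24, edgeR adjusted p = 0.0162), beside 3.91% of 15959 genes. Over all cells, differently numbered libraries with the same gene list correlated about as well as same-numbered ones. A pairing is thus not shown there. Myh11 passed as well without the library labelled PBS 3 (edgeR adjusted p = 0.0338), when 960 genes were called. In bulk sums of this kind, fewer cells of a type and less RNA per cell cannot be told apart. The share of cells in the mural gate moved with these values: it was 0.515%, 1.41% and 1.08% after PBS and 0.232%, 0.507% and 0.122% after bleomycin, a mean difference of −0.714 points, for which the exact permutation of libraries gave a two-sided p of 0.1, which 3 against 3 cannot undercut. Over cells that were not leukocytes it was 1.62%, 3.04% and 3.36% against 0.994%, 1.95% and 0.717%, which overlapped. The share of stromal cells lay lower as well, at 14.3%, 15.5% and 7.48% against 5.80%, 6.73% and 2.12%, and that of leukocytes higher, at 68.3%, 53.6% and 67.9% against 76.7%, 73.9% and 83.0%. With at least 2 markers the mural shares of all cells overlapped, bleomycin 2 being at 0.692% and PBS 1 at 0.589%. The part of these shares in the result was not tested. Without the libraries labelled PBS 1 and PBS 3, which leaves PBS 2 as the lone PBS library, the log2 change of Myh11 was −4.29.

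The related lists did not pass either. In stromal cells, 0 of 20 tested genes of the wider contractile list, 0 of 6 regulators, 0 of 20 matrix genes and 0 of 6 non-muscle actin and myosin genes were called after bleomycin, beside the 2.54% of all genes. Their median log2 changes were 0.62, −0.25, 0.13 and 0.71, beside −0.03 over all genes and 1.18 over the 4 members. In mural cells, 0 of 24, 0 of 2, 0 of 7 and 0 of 5 were called, and over all skin cells 0 of 25, 0 of 7, 0 of 21 and 0 of 6, in both cases beside 0% of all genes, and the median of the 8 members was −1.18 beside 0.01 over all genes.

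In SARATg skin, with 1 library per treatment, stromal Acta2 and Tpm2 after bleomycin were above all 6 SARAWT libraries, and Tagln and Myl9 lay within their range. Acta2 was 4.73 CPM after PBS and 917 CPM after bleomycin in stromal cells (918 and 439 cells; exact Poisson 95% intervals 3.76 to 5.87 and 902 to 933 CPM, for counting error only). Tpm2 was 32.0 and 706 CPM, Tagln 9.29 and 361 CPM, and Myl9 4.96 and 131 CPM. The thinned share of cells with an Acta2 UMI was 0.523% and 32.4%. The difference in bleomycin effect between genotypes was 4.93 ± 1.94 (SE) on the log2 scale for Acta2 (edgeR adjusted p = 0.476), 3.87 ± 1.35 for Myl9 (0.406), 3.57 ± 1.78 for Tagln (0.591) and 1.98 ± 0.85 for Tpm2 (0.508). Of 6 tested members 0 passed, beside 0.00758% of 13190 genes; 3 members were among the 1280 genes at an unadjusted p under 0.05, and DESeq2 called 107 genes but no member. Between genotypes after PBS or after bleomycin alone, 0 of 6 passed as well, beside 0% of genes, with no member among the 1143 and 608 genes at an unadjusted p under 0.05 or the 117 and 15 called by DESeq2. The spread in these fits comes from the SARAWT libraries. The SARAWT baseline includes the libraries labelled PBS 1 and PBS 3, which went against their label in the transgene check. Without them, with PBS 2 as the lone SARAWT PBS library, the difference of effects was 4.03 for Acta2, 3.07 for Myl9, 1.87 for Tagln and 1.28 for Tpm2. With the gene list as a covariate, the spread in that fit comes from SARAWT bleomycin 1 and 2 alone, so that it cannot decide between genotypes.

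Over all SARATg skin cells, Acta2 was 41.7 CPM after PBS and 301 CPM after bleomycin, Tagln 32.0 and 134 CPM, and Myl9 19.6 and 40.2 CPM. Myh11 was 18 and 3.78 CPM and Lmod1 3.26 and 1.01 CPM, and the mural share was 0.571% and 0.136%. The first 3 genes were thus higher and the other 2 lower in the bleomycin library. The difference in effect between genotypes was 3.00 ± 0.46 for Acta2 (edgeR adjusted p = 0.310), 2.58 ± 0.56 for Tagln (0.596) and 2.67 ± 0.64 for Myl9 (0.656), with 0% of 18078 genes called and these 3 members among the 989 genes at an unadjusted p under 0.05. DESeq2 called these 3 members (adjusted p = 1.59e-05, 0.0132 and 0.0337), beside 0.592% of genes. After bleomycin, edgeR called 0 members between genotypes (Acta2 2.19 ± 0.34, adjusted p = 0.147), beside 0.0111% of genes (0.00553% each higher and lower), and DESeq2 called Acta2 and Myl9, beside 2.36% of genes. Without the libraries labelled SARAWT PBS 1 and PBS 3, with PBS 2 as the lone SARAWT PBS library, the difference of effects was 3.30 for Acta2. After PBS, 0 members were called by edgeR or DESeq2, beside 0.0553% of genes by edgeR, 2 matrix genes being among the 10 called (Col1a1 by 3.23 and Col3a1 by 2.70 on the log2 scale, higher in SARATg, edgeR adjusted p = 0.0374 and 0.0478).

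In mural cells after PBS, Actg2 was the 1 member of 8 called between genotypes, beside 0.435% of 3220 genes in either direction and 0.0311% higher. It was 251 CPM in SARATg PBS (46 UMIs in 26 cells, 38 of them in 4 cells with equal numbers of pericyte and smooth muscle markers) and 15.3, 60.1 and 52.3 CPM in SARAWT PBS (log2 difference 2.21 ± 0.57, edgeR adjusted p = 0.0252). The other 22 SARATg cells had 50.2 CPM, within the SARAWT range. The comparison rests on 1 SARATg library, through which Actg2 passed the filter on low counts. With the gene list as a covariate, the difference is set against the library labelled PBS 3 alone. It is the only SARAWT library with the shorter list in this fit, and the spread comes from PBS 1 and PBS 2. The call therefore cannot decide between genotypes. The SARAWT libraries labelled PBS 1 and PBS 3 also went against their label, and without them no test could be fitted. DESeq2 did not call Actg2, nor did edgeR without the gene list as a covariate. The 7 SARATg mural cells after bleomycin had 245 CPM of Actg2 and 9261 CPM of Acta2, against 10529 CPM of Acta2 after PBS.

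Kidney held few mural and stromal cells. There were 54 mural cells over 9 libraries (0 to 11 per library) and 57 stromal cells, 39 of them in SARATg vehicle 2, so that no test within these classes could be fitted at the minimum of 10 cells per library. In the mural cells, Acta2 was 13226, 12547 and 13826 CPM in SARAWT vehicle 1 to 3 (4, 10 and 8 cells) and 9766 and 11391 CPM in AA 1 and 2 (8 and 2 cells), and AA 3 had no mural cell. In SARATg mice it was 10528 and 10222 CPM with vehicle and 6048 CPM with AA. Myh11 was 5775, 3740 and 1961 CPM with vehicle and 1209 and 2141 CPM with AA in SARAWT, so that the groups overlapped, as they did for Tagln, Tpm2 and Lmod1. Both AA libraries lay below the vehicle libraries for 3 of 7 members, beside 8.71% of 884 genes: Acta2, Myl9 (6644, 5403 and 5677 against 4539 and 4111 CPM) and Cnn1 (745, 416 and 388 against 316 and 0 CPM). In these 5 libraries, a minimum of 2 cells chosen after seeing the data, edgeR and DESeq2 called 0 members, beside 0% of genes. Of 31 genes at an unadjusted p under 0.05 in edgeR, Myh11 was the 1 member (log2 change −1.40 ± 0.49, edgeR adjusted p = 0.999). The library labelled SARAWT AA 1, which held 8 of the 10 AA cells, went against its label in the transgene check. At a minimum of 5 cells, also chosen after seeing the data, the edgeR test between SARATg and SARAWT with vehicle (2 libraries each) called 0 of 7 members, beside 0.211% of 1419 genes, with Cnn1 the 1 member at an unadjusted p under 0.05 (log2 difference −2.40 ± 0.75, edgeR adjusted p = 0.589), and DESeq2 called 1 gene and no member. After AA, where the 1 library of each genotype went against its label in that check and is assumed to vary like the vehicle libraries, and in the difference of effects, 0 of 7 were called, beside 0.141% and 0.211% of genes, with 68 and 41 genes but no member at an unadjusted p under 0.05 and 1 and 0 genes called by DESeq2. In the 3 kidney libraries with at least 5 cells of both classes, 5 of 6 tested members were higher in mural than stromal cells, beside 7.66% of 783 genes higher (Myh11 9.93 ± 0.89, Acta2 6.05 ± 1.07, Lmod1 5.20 ± 0.67, Tpm2 5.15 ± 0.67 and Myl9 4.84 ± 0.67 on the log2 scale, edgeR adjusted p from 0.00229 to 0.0100), and Tagln was not (3.82 ± 1.62, adjusted p = 0.158, edgeR). In the stromal cells of these 3 libraries, Myh11 had 0 UMIs and Lmod1 0 to 21.8 CPM. Both passed the filter on low counts through the mural cells, and the difference given for Myh11 is set against a count of 0. The kidney mural Myl9 values were 2662 to 6644 CPM, those of Tpm2 2597 to 5977 CPM and those of Tagln 5579 to 10682 CPM over the 8 libraries with such cells. Tagln varied widely among the few cells that passed the stromal gate. It was 11677 CPM in the 3 cells of the library labelled SARAWT AA 1 (398 UMIs), 1218 CPM in 5 cells of vehicle 2 and 1771 CPM in 8 cells of the library labelled SARATg AA 1, with 0 UMIs in 39 cells of SARATg vehicle 2 (up to 12.2 CPM allowed by a count of 0). In those 3 cells, Pdgfra and Rgs5 had 0 UMIs and the stromal markers summed to 616 CPM, against 24782 CPM in SARAWT vehicle 2, 2837 CPM in the library labelled SARATg AA 1 and 36108 CPM in SARATg vehicle 2. Podocyte markers summed there to 264 CPM, and mural and keratinocyte markers to 205 CPM each. Acta2 in these 4 libraries was 2846, 609, 133 and 12.2 CPM, and Myh11 and Cnn1 had 0 UMIs in all kidney cells that passed this gate.

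Over all kidney cells, Acta2 was 2.65, 11.9 and 19.7 CPM with vehicle and 18.1, 7.15 and 1.79 CPM with AA in SARAWT mice, and 4.78, 25.95 and 9.31 CPM in SARATg vehicle 1 and 2 and AA 1. Tagln was 1.26, 12.1 and 19.1 against 24.8, 4.53 and 3.09 CPM in SARAWT. The groups overlapped for both genes. The edgeR test called 0 of 8 members, beside 0% of 15977 genes, with 1550 genes but no member at an unadjusted p under 0.05 and 84 genes called by DESeq2. The log2 changes ranged from −1.23 ± 1.37 for Cnn1 to 1.42 ± 1.74 for Actg2. Lmod1 averaged 2.57 CPM over all kidney cells and 7.03 CPM in proximal tubule cells. The share of these cells ran from 6.05% to 80.4% of a library, and its part in all-cell Lmod1 was not tested. The library labelled SARAWT AA 1, the highest of its group for Acta2 and Tagln, went against its label in the transgene check. Without it, the log2 change was −1.39 ± 0.98 for Acta2 and −1.53 ± 1.05 for Tagln, edgeR called 0 of 16273 genes, and Cnn1 was the 1 member among 617 genes at an unadjusted p under 0.05. SARAWT vehicle 3 also stood apart, with 79.3% leukocytes and 12.5% proximal tubule cells, against 6.72% and 13.5% leukocytes in vehicle 1 and 2 and 63.6% to 87.2% in the AA libraries. Without vehicle 3, 5494 of 16470 genes were called, among them Actg2 as the single member of 8. Actg2 then had 0 UMIs in both vehicle libraries and 0.178 to 0.560 CPM with AA, so that it passed the filter on low counts through the AA libraries. Between genotypes, 0 of 8 members were called after vehicle, after AA or in the difference of effects, each beside 0% of 17927 genes, and DESeq2 called 158, 8 and 19 genes and no member. Unadjusted p values under 0.05 numbered 783, 342 and 465, none for a member. The libraries labelled SARATg AA 1 and SARAWT AA 1 went against their label in the transgene check, so that the values after AA and the difference of effects may not compare genotypes. Without them, which leaves the comparison after vehicle, 0 of 8 members were called, beside 0 of 16481 genes and 617 genes but no member at an unadjusted p under 0.05.

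Across 14 classes of both tissues with at least 50 cells, the genes whose pattern was most like the mean of the 8 were Ppp1r12b (a myosin phosphatase subunit; Pearson r = 0.953), Aoc3 (vascular adhesion protein 1; 0.948), Foxs1 (0.940), Hey2 (a Notch target; 0.936) and Map7d2 (0.935). This is a description over classes that share libraries. Of the members, Myl9 followed the mean most closely (0.963) and Actg2 least (0.555). With 10 rather than 1 CPM added before the log, Ppp1r12b and Foxs1 stayed among the 5 and the others did not.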

How the data were processed

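GFP+ cells of 8 skin and 9 kidney libraries had been profiled with 10x Genomics 3′ v3 chemistry. The deposited values are raw UMI counts per gene and barcode from the authors' Cell Ranger runs on mm10 (the file headers name versions 3.0.2, 3.1.0 and 4.0.0, and the submitters' processing notes name Cell Ranger 3.0.2 and Seurat 2.3.4). Genes present in both gene lists were kept (30406).

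A barcode entered as a cell if it held 200 genes or more and mitochondrial UMIs made up no more than 20%, and it was gated to the class with at least 3 of its markers. Cells for which another class reached 50% of the share of the leading list were called mixed and left out (1.41% to 4.67% of skin and 3.09% to 11.2% of kidney cells). No doublet caller was run. UMIs were summed per library and class with at least 10 cells (2 or 5 in alternatives) and tested with the quasi-likelihood F test of edgeR 4.0.16 in R 4.3.3 (filterByExpr, TMM, Benjamini-Hochberg adjusted p under 0.05), with DESeq2 1.42.0 as an alternative. Skin genotype comparisons held the gene list as a covariate. Shares of cells were compared with a two-sided exact permutation test over libraries. Replicates are separate libraries, and since nothing in the labels says that each is 1 animal, p-values measure the spread between libraries. Same-numbered SARAWT libraries deviated together in skin (r = 0.257, 0.129 and 0.527 over all cells and 0.236, 0.255 and 0.376 in stromal cells) but not in kidney (−0.379, 0.417 and 0.306). In skin, same-numbered libraries also share a gene list, and over all cells differently numbered libraries with the same list correlated about as well (0.213 and 0.187; −0.105 and −0.0361 in stromal cells).

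On simulated stromal counts, the test recovered 92% of 200 genes changed by 2 on the log2 scale among 10843 genes. Of its calls, 6.12% were false. All genes were drawn at the same dispersion (0.0892), and changed genes only from those with enough counts in the smallest library. The share recovered therefore does not give the power for members that vary more between libraries, such as stromal Acta2. Total counts ranged from 3355217 to 69765525 UMIs per library in skin and from 28660151 to 137093834 in kidney. Poisson intervals cover counting error only, and a count of 0 was bounded by 3 counts. The 8 members are named throughout, and of each related list up to 4 genes with the largest change among those called. Members and lists were chosen with earlier results of these data known. Alternatives covered size factors, filters, cells, markers, pairing, shared barcodes and each library left out. Tests within kidney classes were made only with 2 or 5 cells as the minimum. Sums were made in Python 3.11.15 (pandas 2.3.3, numpy 2.4.6, scipy 1.17.1) and plots in matplotlib 3.10.9.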

Additional observations from a re-analysis of the deposited data

How the results depend on the processing

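Of 819 values computed under another setting, 690 kept their direction and side of the threshold, 42 reversed, 2 weakened, 21 strengthened and 64 moved. The added settings (2 or 5 cells as the minimum, markers above free RNA, shared barcodes kept in 1 library, the gene list as a covariate in skin, and leaving out libraries that went against their label) were chosen after seeing the data. The cause of each change was not tested. The number of members called lower over all skin cells after bleomycin was 0, and became 2 with DESeq2, 1 without a filter on low counts, 1 with the replicate block, 2 with the gene list as a covariate, and 0 to 1 when each library was left out, the 1 being without PBS 3. In stromal cells, 0 members were higher, and 1 (Tpm2) with DESeq2, without a filter, with the replicate block or with at least 4 markers, and 0 to 1 with each library left out, the 1 being without PBS 1. In mural cells, 3 were lower with markers above free RNA. In kidney, 0 to 1 were higher with each library left out, the 1 without vehicle 3. Between genotypes, DESeq2 called 2 members higher after bleomycin and 3 in the difference of effects over all skin cells, and 0 were called in mural cells after PBS with DESeq2 or without the gene list as a covariate. The replicate block changed no call of a member other than Myh11 and Tpm2. In kidney, where same-numbered libraries did not deviate together, it called 0 of 16669 genes, and in mural cells it could not be fitted.

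Log2 changes of members turned sign as follows. Over all skin cells, leaving out each library gave −1.17 to 0.028 for Cnn1 and −0.25 to 0.51 for Tpm2, and Tpm2 was −0.066 without shared barcodes and −0.10 without the libraries labelled PBS 1 and PBS 3. In mural cells, Acta2 was −0.048 without a filter and −0.82 with markers above free RNA, Tagln −0.76 and Lmod1 −0.44 with the latter, and Cnn1 0.56 with at least 4 markers. In stromal cells, Myl9 was 0.046 with DESeq2, 0.013 with RLE size factors, 0.53 with the replicate block, 0.093 with at least 4 markers, 0.045 with shared barcodes kept in 1 library, 0.39 with the gene list as a covariate, 0.91 without the libraries labelled PBS 1 and PBS 3, and −0.74 to 1.74 with each library left out. In kidney, the range with each library left out was −1.39 to 0.24 for Acta2, −1.53 to 0.66 for Tagln, −0.88 to 0.23 for Tpm2 and −1.14 to 1.03 for Lmod1, which was 0.43 with the replicate block. Between genotypes in skin, without the gene list as a covariate, Actg2 after bleomycin was −0.43 over all cells and −1.58 in stromal cells. Lmod1 in the difference of effects was 0.026 with DESeq2, 0.021 without that covariate and 1.02 without the libraries labelled SARAWT PBS 1 and PBS 3. Without these libraries, Cnn1 and Actg2 after PBS were 0.19 and 0.16 over all cells, and in stromal cells Cnn1 was 3.99 after PBS and −2.92 in the difference of effects and Actg2 −0.80 after bleomycin.

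The number of genes called moved more than the members did. In all skin cells it was 0 with edgeR, 1319 with DESeq2, 359 without a filter, 624 with the replicate block, 871 with the gene list as a covariate and 75 with shared barcodes kept in 1 library. In stromal cells it was 273, and 833 with DESeq2, 1063 without a filter, 1197 with the replicate block, 682 with at least 4 markers, 3 without shared barcodes, 2 without the libraries labelled PBS 1 and PBS 3, and 0 to 182 with each library left out. In kidney it was 0, and 84 with DESeq2 and 5494 without vehicle 3. Few mural cells (5 to 50 per skin library) and, in kidney, few stromal cells (0 to 39 per library) limit the precision. Skin libraries held 121 to 918 stromal cells. Tests within kidney classes with at least 10 cells per library, and in skin mural cells those with stricter cell filters or without shared barcodes, could not be run for lack of cells, and a gene list covariate could not be fitted in kidney, where all libraries share 1 list.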
